A study of Homo sapiens with 8 samples.

Results

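The secreted inflammatory signals described here are 9 genes whose ribosome footprints, the mRNA fragments that ribosomes protect, were counted by ribosome profiling: CXCL8, IL1A, IL1B, IL6, CXCL1, CCL2, CXCL12, LIF and IL11. They were chosen by name, among the 11940 listed in at least 1 of 2 tables. The table with 4-OHT listed 8 of them and the table without 4-OHT listed 8, and 7 were in both. IL6 was not listed in the table with 4-OHT, and IL1A was not listed in the table without it.

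All libraries came from BJ human skin fibroblasts, an established cell line, which the labels name BJ-HRAS. Oncogenic HRAS, an activated GTPase of growth factor signalling, is known to make such cells senescent, that is, to stop their division for good. The cells were knocked out for the small nucleolar RNA SNORA13 (KO, clones 66 and 69) or wild type (WT, clones 15 and 54). Each clone was collected after 7 days of 100 nM 4-hydroxytamoxifen (4-OHT), an estrogen receptor ligand often used as the inducer in engineered cells, and without it. This gave 4 groups of 2 libraries: KO with 4-OHT, WT with 4-OHT, KO without 4-OHT and WT without 4-OHT. All 4 groups carry BJ-HRAS, and the labels do not say how HRAS is expressed or switched on. A genotype is represented by 2 clones, so genotype and clone cannot be told apart. Each 4-OHT state has its own table, so 4-OHT and table cannot be told apart either.

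Senescent fibroblasts are known for a secretory phenotype in which cytokines and chemokines are released. Interleukin-1 acts upstream in that phenotype: IL-1α and IL-1β bind the receptor IL1R1, which signals through MYD88 and the transcription factor NF-κB. NF-κB, together with AP-1 and C/EBP factors, is known to drive transcription of CXCL8, IL6 and CXCL1. CXCL8 and CXCL1 attract neutrophils, CCL2 attracts monocytes, and CXCL12 retains and guides cells that carry CXCR4. IL-6, LIF and IL-11 are cytokines of one family that signal through the shared receptor subunit gp130 (gene IL6ST) and the factor STAT3.

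The promoters of 4 genes are shown because the footprints of 3 of them (CXCL8, IL1B and IL11) moved in one direction with 4-OHT and those of CXCL12 in the other. No promoter sequence was at hand for CCL2, which also fell, or for LIF. The motifs were thus not examined in CCL2, and rising and falling members cannot be compared by them. Each line is the 250 bases before the transcription start, 5′ to 3′ on the gene's strand, from RefSeq (GRCh38.p14). They are chr4:73740319-73740568, plus strand, for CXCL8; chr2:112836780-112837029, minus strand, for IL1B; chr19:55370464-55370713, minus strand, for IL11; and chr10:44385098-44385347, minus strand, for CXCL12. Capitals mark matches on either strand to GGNNTTTCC (an NF-κB motif), TGANTCA (an AP-1 motif) or TTNCNNAA (a C/EBP motif).
CXCL8: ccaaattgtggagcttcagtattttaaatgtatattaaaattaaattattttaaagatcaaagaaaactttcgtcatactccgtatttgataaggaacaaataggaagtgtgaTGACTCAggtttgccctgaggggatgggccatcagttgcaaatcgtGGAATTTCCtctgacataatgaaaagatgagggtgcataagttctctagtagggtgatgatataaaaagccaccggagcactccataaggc
IL1B: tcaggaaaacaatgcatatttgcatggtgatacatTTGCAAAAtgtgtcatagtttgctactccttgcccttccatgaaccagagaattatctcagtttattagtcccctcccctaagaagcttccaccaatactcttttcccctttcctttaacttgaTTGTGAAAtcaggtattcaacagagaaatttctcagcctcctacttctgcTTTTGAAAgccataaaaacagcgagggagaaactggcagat
IL11: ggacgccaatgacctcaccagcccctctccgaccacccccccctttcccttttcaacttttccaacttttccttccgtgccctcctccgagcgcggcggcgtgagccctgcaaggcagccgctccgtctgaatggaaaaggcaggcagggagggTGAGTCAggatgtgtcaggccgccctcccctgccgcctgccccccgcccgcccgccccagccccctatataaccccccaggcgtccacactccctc
CXCL12: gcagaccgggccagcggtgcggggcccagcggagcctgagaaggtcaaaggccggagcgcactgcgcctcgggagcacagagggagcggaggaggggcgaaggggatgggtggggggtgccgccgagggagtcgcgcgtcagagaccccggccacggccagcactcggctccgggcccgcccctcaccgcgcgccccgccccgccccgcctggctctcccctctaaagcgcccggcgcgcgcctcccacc

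CXCL8 held the AP-1 match TGACTCA, which begins 137 bases before the start, and the NF-κB match GGAATTTCC, which begins 91 bases before it. IL11 held 1 AP-1 match, TGAGTCA, which begins 96 bases before its start. IL1B held 3 C/EBP matches in its window and CXCL12 held no match to any of the 3 motifs. The members CXCL1 and IL6, whose promoters are not printed, also held the NF-κB motif: CXCL1 had GGAATTTCC and GGGCTTTCC, and IL6 had GGATTTTCC. Of the 7 members with a promoter sequence, 3 held the NF-κB motif, 3 the AP-1 motif and 3 the C/EBP motif, over all windows of a member. Among 35116 promoters of the same length, 5.5% held the NF-κB motif, 6.6% the AP-1 motif and 33.2% the C/EBP motif. A match describes letters in this window and not binding.

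The values were RPKM, reads per kilobase and per 1e6 reads, where the length is the span of the gene with its introns. RNA abundance was not analysed here, so how much mRNA there was and how well it was translated enter a footprint value jointly. In these bulk samples, fewer cells that make a gene and less of its RNA per cell cannot be told apart. Approximate reads behind the values were recovered from them. The libraries held between 190699 (KO clone 66 with 4-OHT) and 1710215 (KO clone 69 without 4-OHT) reads, and the shallowest listed 3169 of 11079 genes at 0. SNORA13 and HRAS were not found by name in either table, so the knockout was not checked on these values. All 10 fibroblast markers were above 0 in every library, and they held between 2.59% and 3.10% of the reads with 4-OHT, against between 6.50% and 8.53% without it. By limma-trend 7 of the 10, among them the collagen genes COL1A1 and COL3A1, fell with 4-OHT in each genotype, VIM and S100A4 rose in each, and THY1 missed the threshold. Of 12 leukocyte and macrophage markers, 6 were listed with 4-OHT and 5 without it. Their summed share was between 0.0270% and 0.0407% with 4-OHT, against between 0.0149% and 0.0295% without it, so the ranges over all clones overlapped. Within each clone the share was higher with 4-OHT. It was 0.0365% against 0.0175% in KO clone 66 and 0.0407% against 0.0295% in KO clone 69. In WT clones it was 0.0270% against 0.0149% (clone 15) and 0.0292% against 0.0192% (clone 54). By limma-trend 0 of the 3 tested were called in either genotype. TYROBP, LYZ and ITGAM were listed in neither table, PTPRC was not listed with 4-OHT, and CD68 and CD14 gave the highest values of this list in every library. The part of the fibroblast and leukocyte marker shares in the members' changes was not tested.

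Together the members took between 1015 and 1399 reads per 1e6 in the libraries with 4-OHT, against between 179 and 324 in the libraries without it. The makeup differed as well. CXCL8 and IL1B made up between 94.1% and 96.8% of the members' reads in each library with 4-OHT, against between 1.64% and 27.5% without it. CCL2 and CXCL12 made up between 0.00% and 1.51% with 4-OHT, against between 65.3% and 97.5% without it. Footprints of these genes were thus mostly those of a neutrophil chemokine and IL-1β with 4-OHT, and mostly those of a monocyte chemokine and CXCL12 without it.

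**Figure D1:**
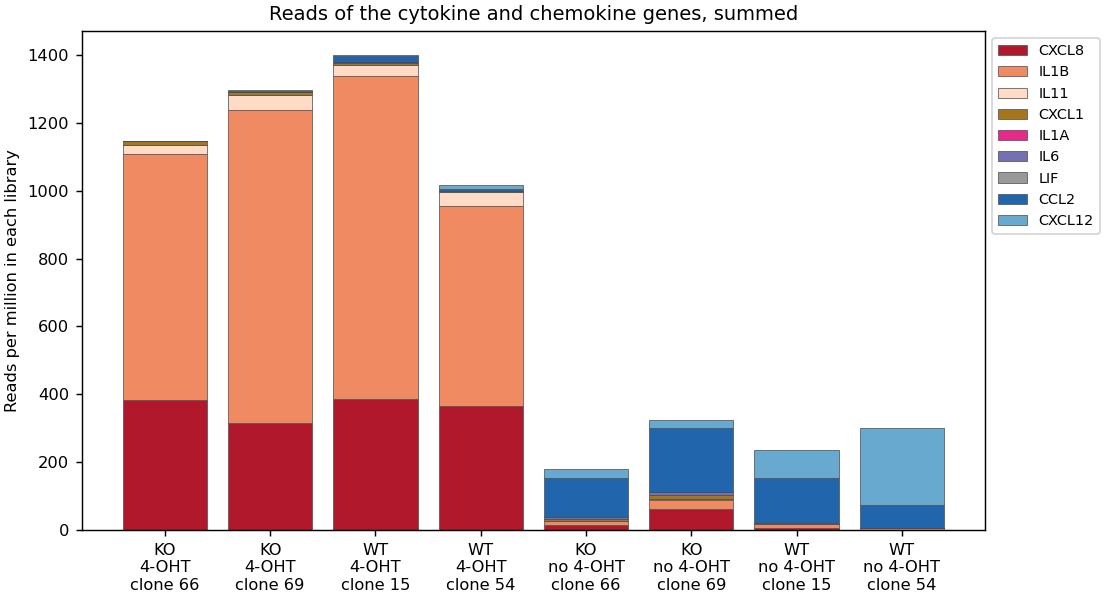
Reads per 1e6 of the 9 genes, stacked by gene, in each of the 8 libraries (1 bar per library). The 4 bars with 4-OHT stand between 1015 and 1399 and are mostly CXCL8 and IL1B, and the 4 bars without 4-OHT stand between 179 and 324 and are mostly CCL2 and CXCL12.

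**Figure D2:**
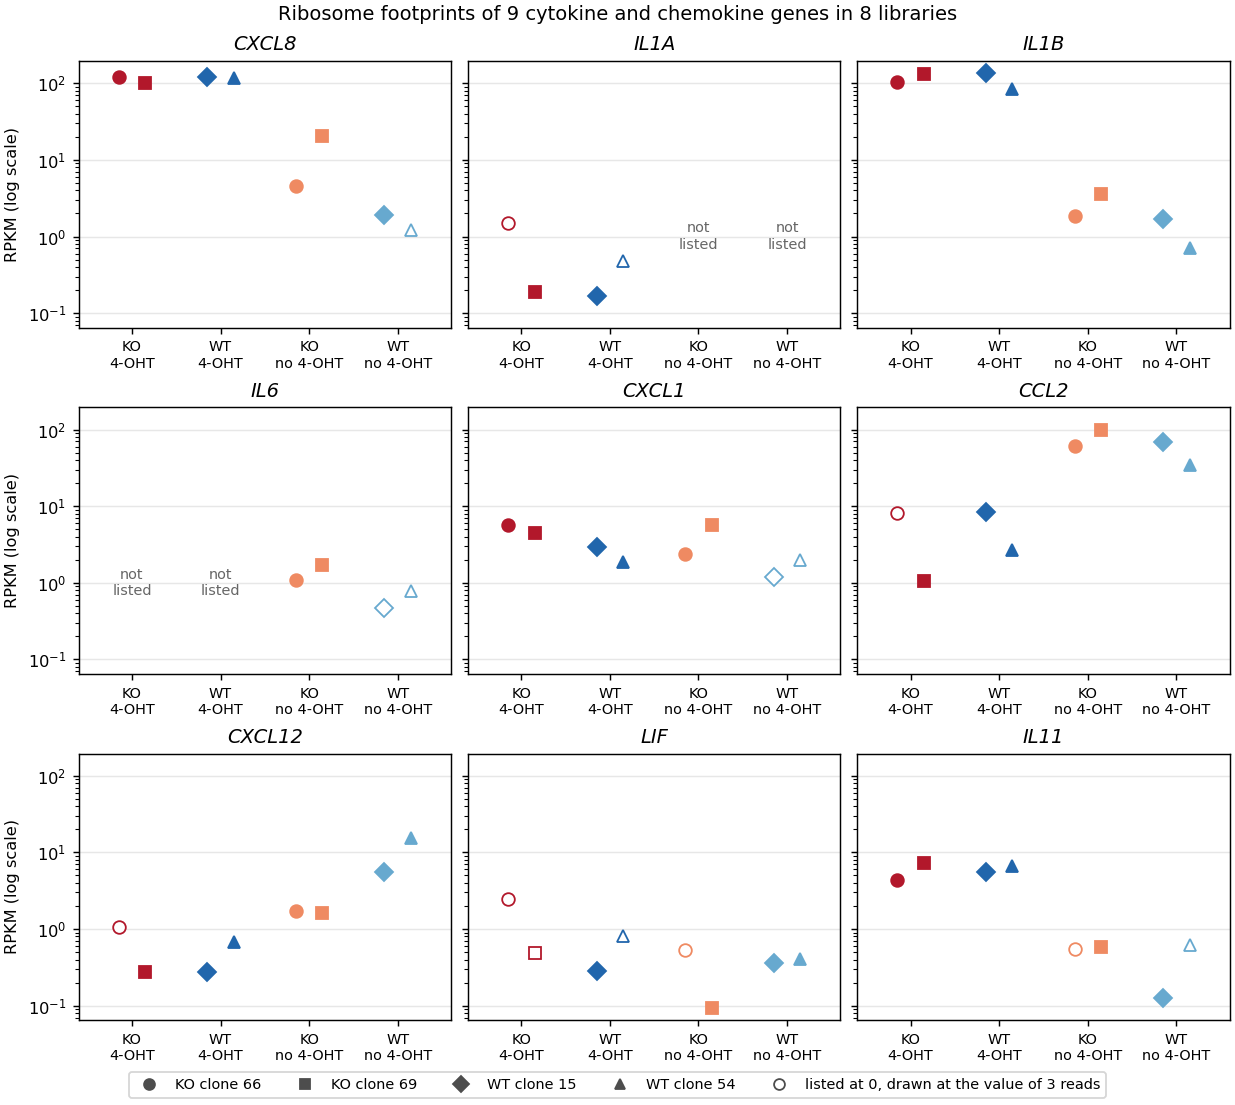
RPKM of each gene on a log axis, 1 point per library, by genotype and 4-OHT; an open symbol is a library listed at 0, drawn at the value that 3 reads would give there. CXCL8, IL1B and IL11 are higher with 4-OHT in all 4 clones, and CCL2 is lower.

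The first question was how the members responded to 4-OHT in each genotype. Of the 7 members in both tables, 5 had enough reads for the test (at least 10 in at least 2 of 8 libraries); CXCL1 and LIF did not. In KO clones 3 rose (CXCL8, IL1B and IL11) and 1 fell (CCL2), and in WT clones 3 rose (the same ones) and 2 fell (CCL2 and CXCL12), at an adjusted p under 0.05 by limma-trend on log2(RPKM + 1). IL11 passed the read filter only through libraries with 4-OHT, and CCL2 and CXCL12 only through libraries without it, so these counts describe the members and support nothing further. CXCL8 and IL1B had enough reads both with and without 4-OHT. Over all 8774 genes tested, 17.1% were called higher and 10.6% lower in KO clones, and 13.5% were called higher and 8.06% lower in WT clones. The median log2 fold change of all genes was 0.05 in KO clones and 0.06 in WT clones. Counted in either direction, 27.6% were called in KO clones and 21.5% in WT clones. By values alone, the groups with and without 4-OHT did not overlap for 5 of the 7 members in KO clones (3 higher and 2 lower) and for 7 in WT clones (4 higher and 3 lower). The WT count takes in CXCL1 and LIF, which rest on few reads. In WT clone 54 CXCL1 had about 2 reads with 4-OHT, and no library held more than about 3 LIF reads. Over the 10685 genes in both tables, 32.1% were higher and 24.4% lower without overlap in KO clones, and 37.7% and 25.8% in WT clones. Since the added 1 shrinks low values, log2 fold changes tend to understate the ratios of RPKM where both values are above 0. A listed 0 enters the fit as 0 and not as 3 reads, so a fitted change can exceed the printed bound. For CCL2 in KO clones the fit gave a 54.4-fold change, against a bound of at least 7.40-fold in clone 66. A molecule can give several reads through PCR, so intervals of ratios and the value of 3 reads cover counting error only.

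IL1B (ENSG00000125538.11; GRCh38.p14 chromosome 2, 112829751 to 112836779) encodes IL-1β, made as an inactive precursor that caspase-1 cleaves. It stood at 103 RPKM (clone 66) and 131 RPKM (clone 69) in KO clones with 4-OHT, against 1.86 and 3.60 RPKM in the same clones without it. In WT clones it stood at 135 RPKM (clone 15) and 84.0 RPKM (clone 54) with 4-OHT, against 1.69 and 0.707 RPKM without it. All 4 libraries with 4-OHT lay far above all 4 without it. The ratio within a clone was 55.5 (clone 66) and 36.5 (clone 69) in KO clones, and 79.9 (clone 15) and 119 (clone 54) in WT clones. The log2 fold change was 5.02 ± 0.35 (SE) in KO clones (limma-trend, adjusted p = 2.44e-04) and 5.65 ± 0.35 in WT clones (adjusted p = 2.08e-04). IL1A, the other ligand of the IL-1 receptor and a membrane-bound or released alarmin, stayed near the limit of counting. It was listed with 4-OHT at 0 (clone 66) and 0.191 RPKM (clone 69) in KO clones and at 0.167 (clone 15) and 0 (clone 54) in WT clones. The 2 values above 0 rest on about 2 and 3 reads, so no order between the genotypes can be read from them.

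CXCL8 (ENSG00000169429.11; chromosome 4, 73740569 to 73743716), the neutrophil chemokine interleukin-8, stood at 121 RPKM (clone 66) and 100.3 RPKM (clone 69) in KO clones with 4-OHT, against 4.58 and 20.2 RPKM without it. In WT clones it stood at 122 RPKM (clone 15) and 116 RPKM (clone 54) with 4-OHT, against 1.92 RPKM in clone 15 and a listed 0 in clone 54 without it. The 4 libraries with 4-OHT lay within a narrow band, and the libraries without it were spread widely, with KO clone 69 highest. Its ratio was 26.5 in KO clone 66 and 4.95 in KO clone 69, with counting intervals (95%, exact) of 14.6 to 52.2 and 3.97 to 6.22. For WT clone 15 the ratio was 63.7, and WT clone 54 was at least 96.2-fold higher with 4-OHT, taking its 0 as 3 reads. The log2 fold change was 3.36 ± 0.67 (SE) in KO clones (limma-trend, adjusted p = 0.0101) and 6.14 ± 0.67 in WT clones (adjusted p = 0.00123). With a pseudocount of 0.1 the call in KO clones was lost (adjusted p = 0.0908). Neither WT clone had enough CXCL8 reads without 4-OHT, so the WT call describes the gene and supports nothing further.

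CXCL1 (ENSG00000163739.4; chromosome 4, 73869393 to 73871308), a neutrophil chemokine of the same receptor CXCR2, stood at 5.70 RPKM (clone 66) and 4.43 RPKM (clone 69) in KO clones with 4-OHT, against 2.41 and 5.72 RPKM without it. In WT clones it stood at 2.90 RPKM (clone 15) and 1.85 RPKM (clone 54) with 4-OHT and was listed at 0 in both without it. The groups of KO clones overlapped and those of WT clones did not. In WT clone 54 without 4-OHT, 3 reads would give 1.98 RPKM, above its value with 4-OHT, so no change could be read in that clone. These values rest on few reads, between about 2 and 9 in the libraries with 4-OHT, and on about 19 in the deepest library. CXCL1 was below the read filter; without a filter its log2 fold change was 0.33 ± 0.35 (SE) in KO clones (limma-trend, adjusted p = 0.551) and 1.74 ± 0.35 in WT clones (adjusted p = 0.0214). Its level with 4-OHT was therefore far from that of CXCL8, whose lowest library with 4-OHT had 100.3 RPKM, both per length of span.

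CCL2 (ENSG00000108691.9; chromosome 17, 34255285 to 34257203), the monocyte chemokine MCP-1, moved the other way. It was listed at 0 (clone 66) and 1.06 RPKM (clone 69) in KO clones with 4-OHT, against 60.7 and 97.8 RPKM without it. In WT clones it stood at 8.34 RPKM (clone 15) and 2.65 RPKM (clone 54) with 4-OHT, against 69.8 and 34.9 RPKM without it. All 4 libraries with 4-OHT lay below all 4 without it. The ratio with over without 4-OHT was 0.0109 in KO clone 69 (about 2 reads with 4-OHT; counting interval 0.00131 to 0.0395), and KO clone 66 was at least 7.40-fold lower, taking its 0 as 3 reads. In WT clones the ratio was 0.120 (clone 15) and 0.0760 (clone 54, about 3 reads; counting interval 0.0152 to 0.234). The log2 fold change was -5.77 ± 0.57 (SE) in KO clones (limma-trend, adjusted p = 7.76e-04) and -3.11 ± 0.57 in WT clones (adjusted p = 0.00843). The WT call was lost with a pseudocount of 0.1 (adjusted p = 0.0785), when the untreated library of WT clone 15 was left out (0.0615) and when the 4-OHT library of WT clone 54 was (0.0554).

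CXCL12 (ENSG00000107562.16; chromosome 10, 44370165 to 44385097), a chemokine that fibroblasts make constitutively, was listed at 0 (clone 66) and 0.273 RPKM (clone 69) in KO clones with 4-OHT, against 1.71 and 1.61 RPKM without it. In WT clones it stood at 0.278 RPKM (clone 15) and 0.682 RPKM (clone 54) with 4-OHT, against 5.47 and 15.2 RPKM without it. Both genotypes were lower with 4-OHT and neither pair of groups overlapped. The ratio was 0.170 in KO clone 69 (about 4 reads with 4-OHT; counting interval 0.0442 to 0.469). KO clone 66 was at least 1.62-fold lower, taking its 0 as 3 reads. In WT clones the ratio was 0.0508 (clone 15) and 0.0448 (clone 54). CXCL12 fell in WT clones (log2 fold change -2.81 ± 0.41 (SE), limma-trend, adjusted p = 0.00371). In KO clones it missed the threshold (-1.24 ± 0.41, adjusted p = 0.0627) and passed with the clone as a block (adjusted p = 0.0387), which pairs the 2 libraries of a clone.

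Among the gp130 cytokines, IL11 (ENSG00000095752.7; chromosome 19, 55364382 to 55370463), known as a fibrogenic factor of fibroblasts, rose. It stood at 4.31 RPKM (clone 66) and 7.20 RPKM (clone 69) in KO clones with 4-OHT, against a listed 0 and 0.577 RPKM without it. In WT clones it stood at 5.56 RPKM (clone 15) and 6.70 RPKM (clone 54) with 4-OHT, against 0.124 RPKM, which is about 1 read, and a listed 0 without it. All libraries with 4-OHT were above all without it. The log2 fold change was 2.39 ± 0.31 (SE) in KO clones (limma-trend, adjusted p = 0.00196) and 2.74 ± 0.31 in WT clones (adjusted p = 0.00138). LIF, a cytokine that keeps stem cells undifferentiated in mouse cultures, was listed at 0 in both KO clones with 4-OHT and at 0.282 (clone 15) and 0 (clone 54) RPKM in WT clones with 4-OHT. Without 4-OHT it was listed at 0 (clone 66) and 0.0927 (clone 69) RPKM in KO clones and at 0.360 (clone 15) and 0.401 (clone 54) RPKM in WT clones. No library held more than about 3 LIF reads, so no change was detectable at this depth. IL6 (ENSG00000136244.12; chromosome 7, 22727200 to 22731998) could be read without 4-OHT only and is given with the genotypes below.

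**Figure D3:**
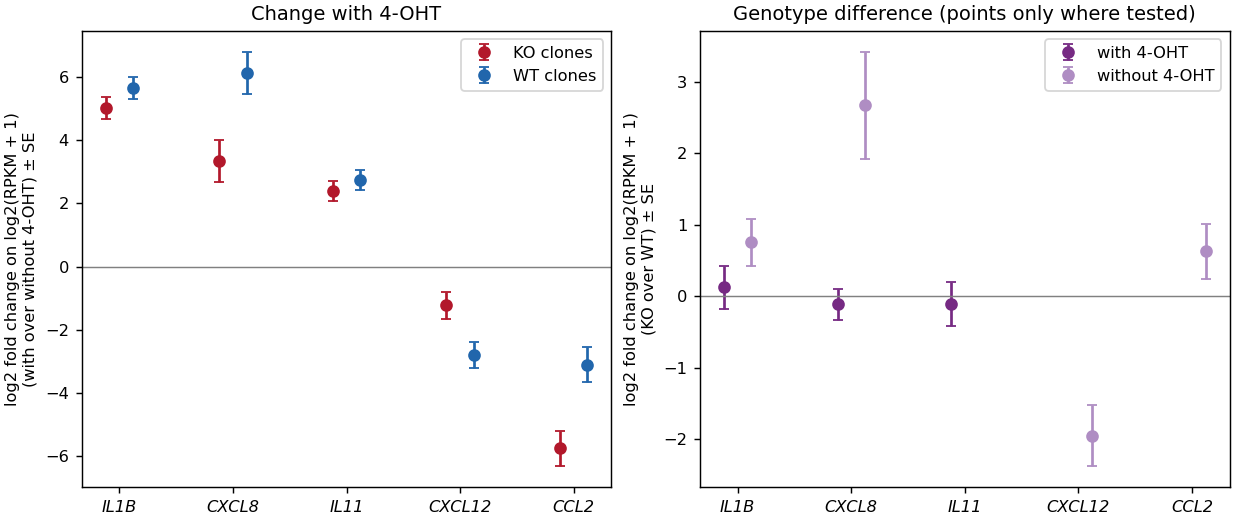
Log2 fold changes on log2(RPKM + 1) with their standard errors for the 5 tested members: left, with over without 4-OHT in KO and WT clones (2 libraries each per group); right, KO over WT with and without 4-OHT, with points only where a member passed the read filter. IL1B, CXCL8 and IL11 lie above 0 and CCL2 and CXCL12 below 0 on the left; on the right the 3 points with 4-OHT lie within 0.13 of 0.

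The second question was whether SNORA13 knockout changed the members. With 4-OHT the genotypes differed little in the 3 members with enough reads. The difference on the log2 scale, KO minus WT, was -0.11 for CXCL8 (95% interval -0.65 to 0.43), 0.13 for IL1B (-0.62 to 0.87) and -0.11 for IL11 (-0.86 to 0.64), with limma-trend and adjusted p of 0.914, 0.928 and 0.942. These intervals still allow a difference of either sign. The other members rested on few reads with 4-OHT. CCL2 and CXCL12 were lower and CXCL1 was higher in both KO clones than in both WT clones; 18.4% of all 11079 listed genes were lower without overlap in this way and 15.6% higher. In KO clone 66, the shallowest library, 3 reads would give 8.20 RPKM for CCL2 and 1.05 RPKM for CXCL12, so its zeros do not place it below the WT clones. CXCL12 was nearly equal in KO clone 69 (0.273 RPKM, about 4 reads) and WT clone 15 (0.278 RPKM, about 7 reads). CCL2 rested on about 2 reads in KO clone 69 and about 3 in WT clone 54. CXCL1 rested on about 2 reads in KO clone 66 and about 2 in WT clone 54, so its order cannot be read from these clones. For CCL2 without a filter the difference was -2.03 ± 0.63 (SE) (limma-trend, adjusted p = 0.831). No gene was called, 0% of 7758 tested, with 365 at an unadjusted p under 0.05 and 55 called by limma-voom on recovered reads, 0 of them members.

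Without 4-OHT, 4 of the 8 listed members were higher in both KO clones than in both WT clones (CXCL8, IL1B, IL6 and CXCL1) and 2 were lower (CXCL12 and LIF). Over all 11546 listed genes, 16.6% were higher and 18.8% lower without overlap. LIF rested on at most about 3 reads in any library. In KO clone 66, 3 reads would give 0.5275 RPKM for LIF, above the WT values of 0.360 (clone 15) and 0.401 (clone 54). The 0 of that clone thus does not place it below the WT clones. CXCL8 stood at 4.58 (clone 66) and 20.2 RPKM (clone 69) in KO clones, against 1.92 (clone 15) and a listed 0 (clone 54) in WT clones. IL6, an inflammatory cytokine of the gp130 family, stood at 1.09 and 1.72 RPKM in KO clones, about 5 and 14 reads, and was listed at 0 in both WT clones, where 3 reads would give 0.473 (clone 15) and 0.791 (clone 54) RPKM. CXCL1 at 2.41 and 5.72 RPKM in KO clones was likewise listed at 0 in both WT clones, where 3 reads would give 1.18 and 1.98 RPKM. The KO values of all 4 genes were highest in clone 69 and the WT values of CXCL8 and IL1B were higher in clone 15, the deeper library of each genotype, and the part of depth in this was not tested.

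None of these differences passed the test. By limma-trend the log2 difference was 2.67 ± 0.75 (SE) for CXCL8 (adjusted p = 0.532), 0.76 ± 0.33 for IL1B (0.611) and 0.63 ± 0.38 for CCL2 (0.694), for which the genotypes overlapped. CXCL8 passed the read filter here only through KO clones. With 1 library left out the CCL2 value lay between 0.14 (without WT clone 54) and 1.12 (without WT clone 15), and that of IL1B was as low as 0.43 without WT clone 54 and 0.42 without KO clone 69. For CXCL12 it was -1.95 ± 0.43 (adjusted p = 0.479), with 1.71 and 1.61 RPKM in KO clones, against 5.47 and 15.2 RPKM in WT clones, and it was -1.29 without WT clone 54. CXCL12 was called lower by limma-voom on recovered reads (adjusted p = 0.00709), where 63 genes were called in all. Without a filter IL6 gave 1.25 ± 0.17 (adjusted p = 0.626), CXCL1 2.26 ± 0.37 (0.626) and LIF, on at most about 3 reads per library, -0.40 ± 0.07 (0.626). Over all genes 0% of 8159 were called by limma-trend, with 687 at an unadjusted p under 0.05. With 2 libraries against 2 an exact permutation test, two-sided, can give no p below 0.333, so none is given for single values.

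The difference of the 4-OHT changes, KO minus WT, was -2.78 ± 0.94 (SE) for CXCL8, -2.66 ± 0.80 for CCL2 and 1.57 ± 0.59 for CXCL12 on the log2 scale, each with an adjusted p of 0.859 by limma-trend. For IL1B it was -0.63 ± 0.50 (adjusted p = 0.870) and for IL11 -0.35 ± 0.44 (0.903). Leaving out the untreated library of KO clone 69 moved the CXCL8 value to -1.82, and leaving out that of WT clone 54 moved the CXCL12 value to 0.91. With 1 library left out, the IL1B value lay between -0.98 and -0.29 and the IL11 value between -0.68 and -0.023. No gene of 8774 passed (0%), with 451 at an unadjusted p under 0.05 and 4 called by limma-voom. The smaller CXCL8 ratio in KO clones came with higher values without 4-OHT, since the levels with 4-OHT were 121 and 100.3 RPKM in KO clones and 122 and 116 RPKM in WT clones. A difference between genotypes in the response of these genes was thus not shown.

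Within a library the members could be ordered by RPKM, a level per length of span. With 4-OHT, IL1B and CXCL8 were the 2 highest in all 4 libraries, IL1B first in KO clone 69 and WT clone 15 and CXCL8 first in KO clone 66 and WT clone 54, so their order by RPKM differed between clones. CXCL8 then ranked between 144 and 176 and IL1B between 129 and 215 of 11079 genes. Without 4-OHT, CCL2 was the highest member in all 4 libraries and ranked between 116 and 306 of 11546 genes. These orders rest on dividing by span with introns, which is 14933 bases for CXCL12 and 1919 bases for CCL2. By reads, IL1B was above CXCL8 in all 4 libraries with 4-OHT. Without 4-OHT, CCL2 held more reads than CXCL12 in the other libraries, but in WT clone 54 CXCL12 held 75.3% of the members' reads and CCL2 22.2%. Second place by RPKM went to CXCL8 in both KO clones and to CXCL12 in both WT clones.

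Genes with a pattern like that of CXCL8 were sought among 8774 by the root-mean-square distance of centred log2(RPKM + 1) over the 8 libraries. TM4SF1, a membrane protein of the tetraspanin-like L6 family, was nearest (0.80), followed by IL1B (0.86), IER3, an immediate early response gene (0.95), PLAU, the urokinase plasminogen activator (1.01), and CYCS, cytochrome c (1.04). TM4SF1 had between 126 and 162 RPKM with 4-OHT, against between 1.61 and 6.57 RPKM without it. The median gene lay at a distance of 2.61. Nearest to CCL2 were BST2, an interferon-induced membrane protein (0.58), and SEMA3B, a secreted semaphorin (0.68). THBS1, a matricellular glycoprotein (0.75), LUM, a collagen-binding proteoglycan (0.87), and FOXE1, a forkhead transcription factor (0.91), came next. BST2 had between 0 and 11.5 RPKM with 4-OHT, against between 53.5 and 69.1 RPKM without it. Likeness here is a description over 8 libraries that share 4-OHT and table.

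Of a list of 35 other cytokines and chemokines, 6 had enough reads to be tested for a 4-OHT change. Of these, 2 were higher and 2 lower in KO clones and likewise in WT clones, with a median log2 fold change of -0.25 in KO clones and -0.08 in WT clones. CSF2, which encodes the granulocyte-macrophage growth factor GM-CSF, stood at 2.20 (clone 66) and 8.98 RPKM (clone 69) in KO clones with 4-OHT, against 0 and 0.491 RPKM without it. It rose by 2.21 ± 0.53 (SE) in KO clones (limma-trend, adjusted p = 0.0209) and 2.80 ± 0.53 in WT clones (adjusted p = 0.00994). Both WT clones were listed at 0 for CSF2 without 4-OHT. CSF2 passed the read filter only through libraries with 4-OHT, so these calls describe it and support nothing further. MIF, a cytokine stored in many cells, averaged 1164 ± 157 RPKM (SD, n = 2) in KO clones with 4-OHT, against 361 ± 4.95 RPKM without it, and rose in both genotypes. CSF1, the macrophage growth factor, averaged 0.690 ± 0.240 RPKM in KO clones with 4-OHT, against 8.64 ± 0.465 RPKM without it, and fell in both genotypes. CXCL16, a membrane-bound chemokine, also fell in both. With 4-OHT it was above 0 only in KO clone 69 (0.159 RPKM), so it passed the filter only through libraries without 4-OHT. CXCL2, CXCL3 and CXCL5, relatives of CXCL8, were listed with 4-OHT at no more than 0.808 RPKM, and TNF, CCL20 and IL33 were in neither table.

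Of 29 receptors and decoys, 13 were tested; 1 was higher and 3 were lower in KO clones, 2 were higher and 2 lower in WT clones, and the medians were 0.04 and 0.02. IL6ST, the gp130 subunit shared by IL-6, LIF and IL-11, averaged 3.59 ± 0.367 RPKM in KO clones with 4-OHT (SD, n = 2), against 9.11 ± 0.389 RPKM without it. It fell in both genotypes, by 1.14 ± 0.26 on the log2 scale in KO clones (limma-trend, adjusted p = 0.0169) and by 0.97 ± 0.26 in WT clones (adjusted p = 0.0363). IL11RA, the specific receptor of IL-11, missed the threshold in both (0.04 ± 0.26, adjusted p = 0.923 in KO clones; 0.08 ± 0.26, adjusted p = 0.859 in WT clones). TNFRSF11B (osteoprotegerin), a secreted decoy receptor, rose in WT clones (1.28 ± 0.29, limma-trend, adjusted p = 0.0204) and missed the threshold in KO clones (0.69 ± 0.29, adjusted p = 0.118). IL17RC, a chain of the IL-17 receptor, fell in KO clones (-1.21 ± 0.26, adjusted p = 0.0130) and missed the threshold in WT clones (-0.16 ± 0.26, adjusted p = 0.715). IL4R, the IL-4 receptor, rose in both genotypes, and DPP4, a peptidase that trims chemokines such as CXCL12, fell in both. IL1R1 and IL1RAP, the IL-1 receptor chains, missed the threshold in both, with at most 0.324 RPKM in any library. CXCR1, CXCR2, CXCR4, ACKR3 and CCR2, receptors of these chemokines, were in neither table.

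Of 35 genes of IL-1, TNF and NF-κB signalling, 30 were tested. In KO clones 2 were higher and 1 lower (median 0.21), and in WT clones 1 was higher and 0 lower (median 0.09). NFKBIE, an NF-κB inhibitor, rose in both genotypes, by 1.57 ± 0.38 (SE) in KO clones (limma-trend, adjusted p = 0.0210) and by 1.40 ± 0.38 in WT clones (adjusted p = 0.0366). Its untreated libraries alone missed the read filter, so these calls describe NFKBIE and support nothing further. MYD88, the adaptor of the IL-1 receptor, fell in KO clones (-1.82 ± 0.32, adjusted p = 0.00592) and missed the threshold in WT clones (-0.67 ± 0.32, adjusted p = 0.178); the difference was not called. TNFAIP6, an extracellular protein induced by TNF and IL-1, rose in KO clones. RELA, the p65 subunit of NF-κB, and NFKBIA, its inhibitor IκBα, missed the threshold in both.

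Of 12 gp130 signalling genes, 10 were tested; 2 were higher and 2 lower in KO clones (median 0.07), and 0 were higher and 2 lower in WT clones (median 0.14). STAT3, the main factor downstream of gp130, averaged 2.20 ± 0.353 RPKM in KO clones with 4-OHT (SD, n = 2), against 7.38 ± 0.856 RPKM without it, and 3.13 ± 0.436 RPKM in WT clones with 4-OHT, against 6.86 ± 0.284 RPKM without it. It fell in both genotypes (adjusted p = 0.00282 in KO clones and 0.0152 in WT clones, limma-trend). CEBPD fell in both genotypes too, and CEBPB, a C/EBP factor known to drive cytokine genes in senescence, and PIAS3 rose in KO clones. CEBPD passed the read filter only through libraries without 4-OHT, so its calls describe it and support nothing further.

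Of 14 genes that process or release IL-1, 10 were tested, and 3 were higher and 0 lower in each genotype (median 0.31 in KO clones and 0.39 in WT clones). NLRP3, the inflammasome sensor, and CAPN2, a subunit of the protease calpain that cleaves pro-IL-1α, rose in both genotypes. NLRP3 averaged 0.987 ± 0.0467 RPKM in KO clones with 4-OHT (SD, n = 2), against 0.0762 ± 0.0826 RPKM without it. Its highest library without 4-OHT had 0.135 RPKM. NLRP3 passed the read filter only through libraries with 4-OHT, so its calls describe it and support nothing further. CASP1, the protease that matures IL-1β, averaged 19.9 ± 3.10 RPKM in KO clones with 4-OHT, against 6.45 ± 0.0460 RPKM without it, and was called in KO clones (limma-trend, adjusted p = 0.0276) but not in WT clones (adjusted p = 0.0988). CASP4 was called in WT clones (adjusted p = 0.0310) but not in KO clones (adjusted p = 0.0510).

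Of 15 entries for cytokine mRNA stability, 13 were tested, with 4 higher and 0 lower in KO clones (median 0.27) and 3 higher and 0 lower in WT clones (median 0.08). ZFP36 (tristetraprolin), which promotes decay of cytokine mRNAs, rose in KO clones (1.85 ± 0.50, limma-trend, adjusted p = 0.0326) and missed the threshold in WT clones (1.51 ± 0.50, adjusted p = 0.0737). Its relative ZFP36L2, which promotes decay of AU-rich mRNAs, averaged 54.7 ± 3.41 RPKM in KO clones with 4-OHT (SD, n = 2), against 14.9 ± 3.85 RPKM without it. ELAVL1 (HuR), which stabilises such mRNAs, and HNRNPD rose with it in both genotypes. Of 9 entries for cytosolic DNA sensing, 7 were tested; 0 were higher and 2 lower in KO clones (IKBKE and TMEM173, the adaptor STING; median -0.73), and 0 were called in WT clones (median 0.01). IKBKE passed the read filter only through libraries without 4-OHT, so its call describes it and supports nothing further. Over the 7 lists 26 genes were called in at least 1 genotype, 15 of them in both, and those 15 in the same direction. Over all 8774 genes tested, 27.6% were called in KO clones and 21.5% in WT clones. The share of all genes called in both, or in the same direction, was not counted, so these counts only describe the lists. Between genotypes and in the difference of the changes, 0 genes of these lists were called by limma-trend.

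**Figure D4:**
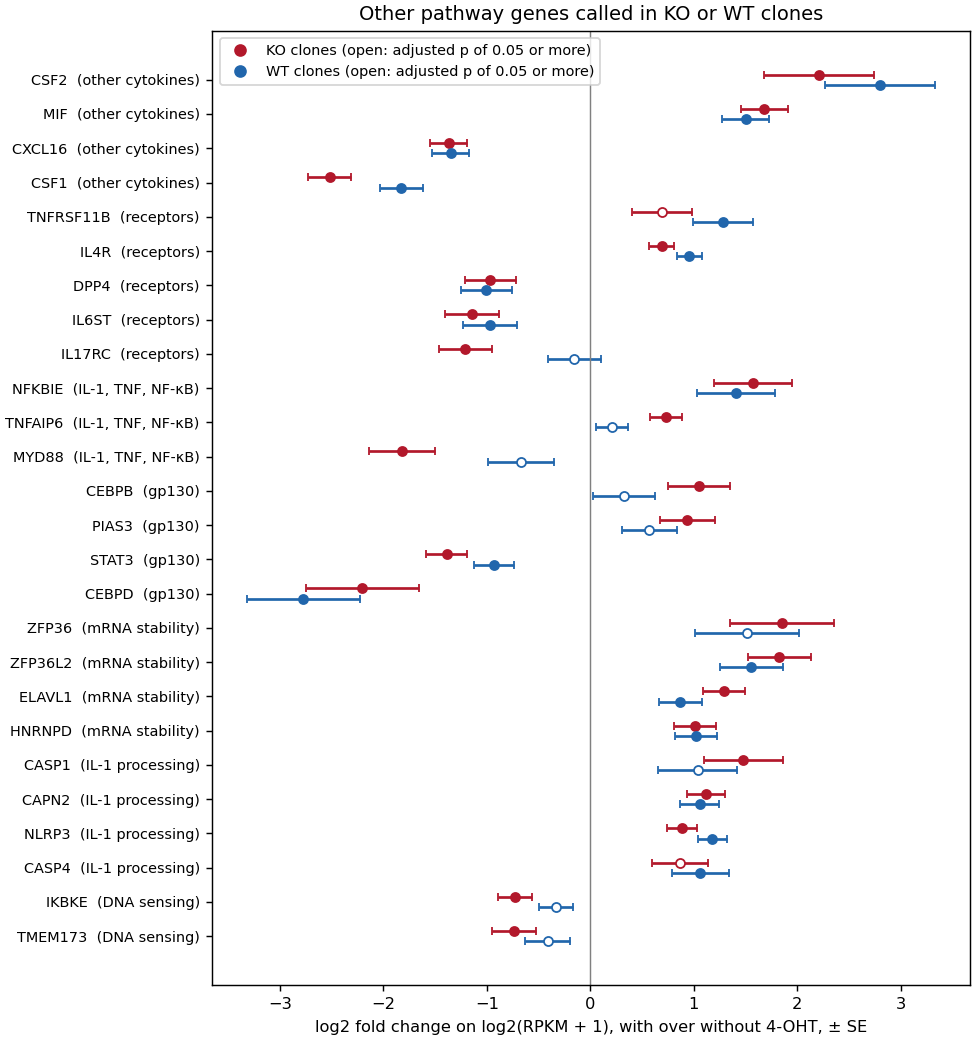
Log2 fold changes with 4-OHT on log2(RPKM + 1), with standard errors, of the 26 genes of the 7 pathway lists called in KO or WT clones (2 libraries per group; open symbols are not called in that genotype). CSF2 and MIF are highest among the other cytokines and CSF1 lowest, and STAT3 and IL6ST lie below 0 in both genotypes.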

How the data were processed

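Footprints were analysed in 8 libraries, 2 clones per genotype with and without 4-OHT. The deposited tables give no unit. Their values were taken as RPKM made by the authors, because values multiplied by RefSeq gene spans added up to about the same sum in each library. Alignment was by STAR to GRCh38, per the submitters' processing notes. Versions, read counter and annotation: not given in the sources used here.

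Reads were recovered from the steps between low values. Between 77.9% and 83.2% of low values lay within 0.1 of a whole number of reads (20.0% by chance), so they are approximate. Genes with 10 or more such reads in 2 or more libraries of a fit were tested by limma-trend (limma 3.58.1, R 4.3.3) on log2(RPKM + 1), with Benjamini-Hochberg adjustment over all genes tested and a threshold of 0.05. Genotypes were compared within a table (4 libraries), and 4-OHT changes on all 8 libraries over the 10685 shared genes. The scripts were tested on simulated data. P-values measure the spread between clones.

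The clone pairs its 2 libraries, per the labels; their deviations from the group means correlated at 0.01 in KO and 0.14 in WT clones. Members and lists were chosen with earlier results of these data known. Of each list up to 4 genes with the largest change among those called in KO or WT clones were named by rule; other list genes were named after their values were seen. An item of the lists is not reported here and was left out of their counts. Alternatives were a pseudocount of 0.1, no filter, median-ratio scaling, limma-voom on recovered reads, other libraries in the fit, the clone as a block and each library left out.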

Additional observations from a re-analysis of the deposited data

How the results depend on the processing

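Members called with 4-OHT numbered 4 in KO clones and 5 in WT clones, and between 4 and 5 in KO clones and between 4 and 6 in WT clones over the alternatives. IL1B and IL11 with 4-OHT, CXCL8 and CXCL12 in WT clones and CCL2 in KO clones kept direction and call under every alternative that tested them. For IL11, CXCL12, CCL2 and, in WT clones, CXCL8, enough reads were present only on the side where the gene was high. A kept call of these genes therefore adds no support. The calls that changed were CXCL8 in KO clones, CCL2 in WT clones and CXCL12 in KO clones, which passed in 6 of 14 alternatives (highest adjusted p 0.205, limma-trend); the cause was not tested. With the clone as a replicate block 2004 genes were called in KO clones, 1555 in WT clones and 0 for the difference of the changes, and CXCL12 in KO clones was the one member whose call changed. Between genotypes no paired analysis was possible because the clones share no number.

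Over all genes, 2425 were called in KO clones (1273 with only their 4 libraries, and between 1103 and 3487 with 1 library left out, the lowest without the untreated library of KO clone 66). In WT clones 1888 were called (2963 with limma-voom, and between 802 and 2556 with 1 library left out). Between genotypes 0 were called with 4-OHT, against 55 with limma-voom and between 0 and 904 with 1 library left out, the highest without KO clone 69, which leaves the shallow clone 66 as a lone library assumed to vary like the WT group. Without 4-OHT 0 were called, against 63 with limma-voom (1 of them the member CXCL12), 3 with all 8 libraries in the fit and between 0 and 6 with 1 library left out. For the difference of the changes it was 0, against 4 with limma-voom and between 0 and 2 with 1 library left out. Between genotypes with 4-OHT the sign of 3 small differences turned: with 1 library left out CXCL8 lay between -0.247 and 0.028 (above 0 without KO clone 69), IL1B between -0.216 and 0.465 (below 0 without WT clone 54 or KO clone 69) and IL11 between -0.421 and 0.207 (above 0 without KO clone 66 or WT clone 54), and IL11 was 0.207 with limma-voom. Depth limits IL1A, IL6, LIF and CXCL1, which rest on about 19 reads or fewer in any library, and KO clone 66 with 4-OHT, where 3 reads of CCL2 would give 8.20 RPKM.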
